A study of Rattus norvegicus with 4 samples.

Results

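Beside insulin, the secretory granules of an insulin-producing cell hold other soluble cargo, and the transcripts of 10 such genes are described here in INS-1 cells grown as a monolayer or in a bioprinted hydrogel. They are the granins Chga, Chgb, Scg2, Scg3 and Vgf, the islet amyloid polypeptide gene Iapp, and the minor islet hormone genes Gcg, Sst, Ppy and Npy. They were chosen by name and are 10 of the 23360 gene symbols in the data. Levels are given as TPM, transcript abundances corrected for length that sum to 1000000 in each sample. Of the 10 genes, 8 had a mean of at least 1 TPM over all samples, the minimum for testing that 11960 genes reached. Sst and Ppy lay below it.

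Peptide hormones are made as precursors, sorted in the trans-Golgi network into granules, cut there by convertases and kept until a rise in calcium releases them. Granins are acidic proteins that condense with the hormones in the maturing granule and are themselves cut into peptides, and Iapp encodes amylin, which beta cells release together with insulin. In the islet, glucagon, somatostatin and pancreatic polypeptide are the products of the alpha, delta and PP cells, and neuropeptide Y occurs in some islet cells and in nerves.

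Messenger RNA was sequenced from 4 cultures of INS-1 832/3, a clonal rat insulinoma line that also carries a human insulin gene. In the control group, 2 cultures were grown as a standard 2D monolayer with no hydrogel. In the other group, 2 cultures were 3D-bioprinted in GelXA LAMININK 411, a gelatin-based hydrogel with laminin, as a grid that was crosslinked with UV light, so that effects of the matrix, the printing and the light cannot be told apart. All 4 cultures had the same RPMI-1640-based medium and were taken after 5 days at passage 3. The labels call the cultures of a group biological replicates and say no more about how they were kept apart, so the p-values measure only the spread between these samples, which may be technical. One clonal tumor line stands here for a beta cell, and no primary islet cells were measured.

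The cell type label was checked against marker genes. Of 11 beta-cell markers in the data, 10 had a mean of at least 1 TPM, all but Ucn3, and insulin transcripts took 13.6% and 14.9% of TPM in 2D and 14.5% and 15.6% in 3D culture. All 4 acinar markers in the data (Prss1, Cpa1, Cela1 and Pnlip) were listed at 0 in every sample. The most abundant markers of 3 other cell types were low but present. The fibroblast gene Pdgfra was at 1.90 and 1.87 TPM in 2D and at 2.32 and 2.24 TPM in 3D culture, the endothelial gene Kdr at 0.966 and 1.00 TPM and at 1.27 and 1.48 TPM, and the leukocyte gene Cd68 at 0.789 and 0.516 TPM and at 0.863 and 1.45 TPM. Pdgfra and Kdr did not pass the limma test (adjusted p = 0.289 and 0.198), and Cd68 lay below the minimum for testing. The other markers of these 3 cell types did not exceed 0.180 TPM in any culture and shared no direction; Lyz2 was at 0.133 and 0.0725 TPM in 2D and at 0 in both 3D cultures, and Dcn, Cdh5 and Ptprc were at 0 in every sample. Of the duct markers, Krt7 was at 15.3 and 18.1 TPM in 2D and at 21.1 and 19.2 TPM in 3D culture, Sox9 was lower in both 3D cultures (0.730 and 0.743 TPM against 0.702 and 0.650 TPM), and Krt19 did not exceed 0.130 TPM. The part of Krt7 in the results was not tested. TPM do not keep the sequencing depth, so counting error was not part of the fit. Precision rests on the 2 cultures of each group and on the spread of other genes, which limma shares between genes.

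Of the 8 cargo genes tested, 5 were higher (Chgb, Scg2, Scg3, Vgf and Gcg) and 1 was lower (Npy) in 3D culture with an adjusted p below 0.05 in limma, while Iapp and Chga did not pass. Over all 11960 genes tested, 38% passed, with 18.5% of the genes tested higher and 19.5% lower in 3D culture. The groups did not overlap for 7 of the 8 cargo genes, Chga being the exception, and for 74.2% of all genes tested. The median log2 fold change was 0.32 over the 8 cargo genes and -0.0031 over all genes tested. Gcg had the largest fold change of the 8, 2.39-fold (95% interval 1.47 to 3.90), and Chgb the largest among the granins, 1.73-fold (1.31 to 2.29). Fold changes are on the log2(TPM + 1) scale after scaling of the samples by factors from 0.960 to 1.02, whereas the TPM printed for each culture are as deposited. In bulk RNA, a change in the number of cells that make a transcript and a change in RNA per cell cannot be told apart.

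**Figure D1:**
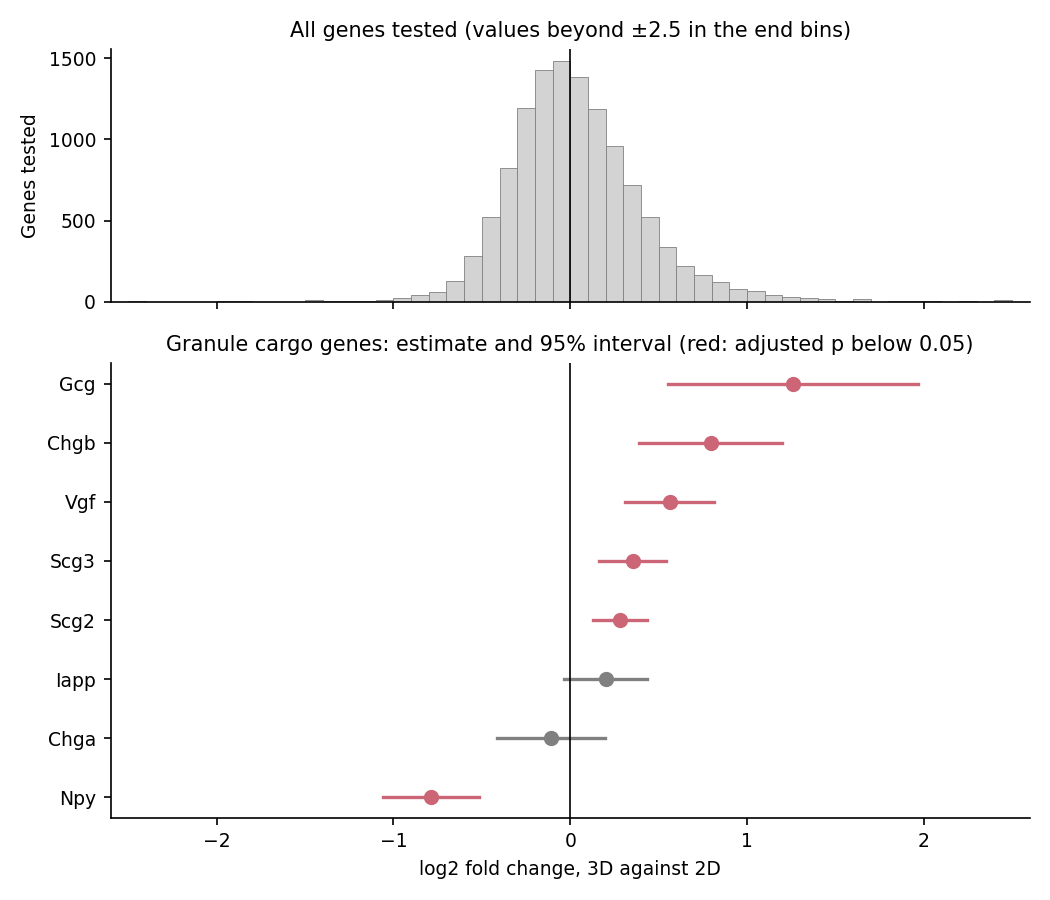
Log2 fold changes of 3D against 2D culture, with a histogram of all 11960 genes tested above and the estimate and 95% interval of the 8 tested cargo genes below, in red where the adjusted p was below 0.05. The intervals of Iapp and Chga include 0, and Npy is the one cargo gene whose interval lies wholly below 0.

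The promoters of several of these genes are shown because Scg2, Vgf and Sst share an 8-letter match. The windows run from 150 bases before to 20 bases from the annotated transcription start, on the GRCr8 assembly with sequence from RefSeq, and 9 of the 10 genes were found in the promoter table; Chga was not among them. Capitals mark TGACGTCA, the full cAMP response element, which reads the same on both strands.
Vgf: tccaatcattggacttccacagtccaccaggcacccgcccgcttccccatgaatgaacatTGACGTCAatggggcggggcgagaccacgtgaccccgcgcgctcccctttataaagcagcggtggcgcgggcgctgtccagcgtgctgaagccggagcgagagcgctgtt
Scg2: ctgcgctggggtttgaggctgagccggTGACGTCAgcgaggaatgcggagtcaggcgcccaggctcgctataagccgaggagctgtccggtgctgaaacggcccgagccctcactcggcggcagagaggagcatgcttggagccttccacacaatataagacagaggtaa
Sst: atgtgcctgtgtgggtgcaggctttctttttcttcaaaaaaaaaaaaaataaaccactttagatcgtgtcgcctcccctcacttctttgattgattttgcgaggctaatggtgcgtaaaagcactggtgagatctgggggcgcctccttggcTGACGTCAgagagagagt
Npy: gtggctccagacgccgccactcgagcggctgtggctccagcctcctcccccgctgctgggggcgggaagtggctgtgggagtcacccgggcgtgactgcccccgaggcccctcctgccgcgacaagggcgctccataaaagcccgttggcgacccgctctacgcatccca
These windows lie at chr12:25277001-25277170, minus strand (Vgf), chr9:88256847-88257016, minus strand (Scg2), chr11:90461396-90461565, plus strand (Sst) and chr4:80211961-80212130, plus strand (Npy), and each is written 5′ to 3′ along its gene. The match began 90 bases before the start in Vgf and 123 bases before it in Scg2. In Sst it began 2 bases past the first transcribed base as annotated. The Npy window, shown for comparison, does not hold these letters, and neither do the promoters of Chgb, Scg3 and Gcg, which rose in 3D culture as Scg2 and Vgf did. Searched on both strands over 300 bases, 250 before and 50 after the start, TGACGTCA was found in 3 of the 9 promoters of cargo genes and in 1.83% of 33469 promoters in all. Its shorter part TGACG, which every TGACGTCA contains, was found in 4 of the 9, Scg3 being the fourth, and in 21.2% of all promoters. The letters TATAAA were found in 3 of the 9 (Vgf, Gcg and Ppy) and in 14.2% of all promoters. Such matches describe the sequence, and no binding was measured.

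Chga encodes chromogranin A, a granin found in most endocrine granules. It was at 7986 and 9049 TPM in the 2D cultures and at 7653 and 8648 TPM in the 3D cultures. The lower culture of each group lay below both higher ones, so the groups overlapped. The log2 fold change was -0.11 (standard error 0.12, 95% interval -0.41 to 0.20) with an adjusted p of 0.511 in limma, and it was 0.018 without 2D replicate 2. Chga was the 11th most abundant gene in 2D and again in 3D culture.

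Chgb encodes chromogranin B, which is packed with hormone into the dense core of the granule. It was at 2487 and 3185 TPM in the 2D cultures and at 4625 and 5469 TPM in the 3D cultures. Both 3D cultures were above both 2D cultures, and the gap between the groups was wider than the distance between the replicates of either group. The mean was 2836 ± 494 TPM in 2D and 5047 ± 597 TPM in 3D culture (SD, n = 2), with a log2 fold change of 0.79, standard error 0.16 (limma, adjusted p = 0.0168). Chgb moved from the 32nd to the 18th most abundant gene. A group of 123 tested genes with a mean of at least 1000 TPM was formed after the values were seen. Of these, 10 rose and 49 fell at an adjusted p below 0.05 in limma, against 18.5% and 19.5% of all genes tested. Chgb had the highest log2 fold change of the 123 in this fit.

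Scg2 encodes secretogranin II, the precursor of secretoneurin. Its level was 778.8 and 723.5 TPM in 2D culture and 957.8 and 921.4 TPM in 3D culture. The 3D cultures were both higher, and the replicates of each group lay close together. The log2 fold change was 0.28 with a standard error of 0.061 (1.21-fold, limma adjusted p = 0.0203), and 39.6% of all genes tested had a larger change in either direction. Scg3 encodes secretogranin III, which binds chromogranin A and cholesterol-rich granule membrane. Its level was 283.0 and 300.3 TPM in 2D culture and 368.2 and 400.5 TPM in 3D culture. Again both 3D cultures lay above both 2D cultures. The log2 fold change of Scg3 was 0.35 with a standard error of 0.076 (1.28-fold, limma adjusted p = 0.0196).

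Vgf encodes a granin-like protein that is cut into several bioactive peptides. It is 1 of the 3 cargo genes with TGACGTCA in the promoter. It was at 160.9 and 185.4 TPM in the 2D cultures and at 268.6 and 258.0 TPM in the 3D cultures. The 3D cultures were both higher and closer to each other than the 2D cultures were. The mean rose from 173 ± 17.3 TPM to 263 ± 7.51 TPM (SD, n = 2), with a log2 fold change of 0.56, standard error 0.10 (1.48-fold, limma, adjusted p = 0.0119).

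The calls of the granins depended on single cultures. Without 3D replicate 1, the adjusted p in limma was 0.0844 for Chgb, 0.161 for Scg2, 0.0961 for Scg3 and 0.0987 for Vgf, and 136 of all genes passed in place of 4541. None of the 8 cargo genes passed in this limma fit, and 5 had an unadjusted p below 0.05. Without 3D replicate 2, it was 0.102, 0.0889, 0.122 and 0.0654 in the same order, and 1037 genes passed. Scg2 was also above the threshold without 2D replicate 2, at 0.0586. The fold change of each of these 4 granins was positive in every one of these fits. Over 9 other settings of the analysis, the adjusted p ran from 0.00426 to 0.0599 for Chgb, from 0.0117 to 0.0524 for Scg2, from 0.00925 to 0.0536 for Scg3 and from 0.00437 to 0.0381 for Vgf, the highest value coming from the fit without an expression filter each time.

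**Figure D2:**
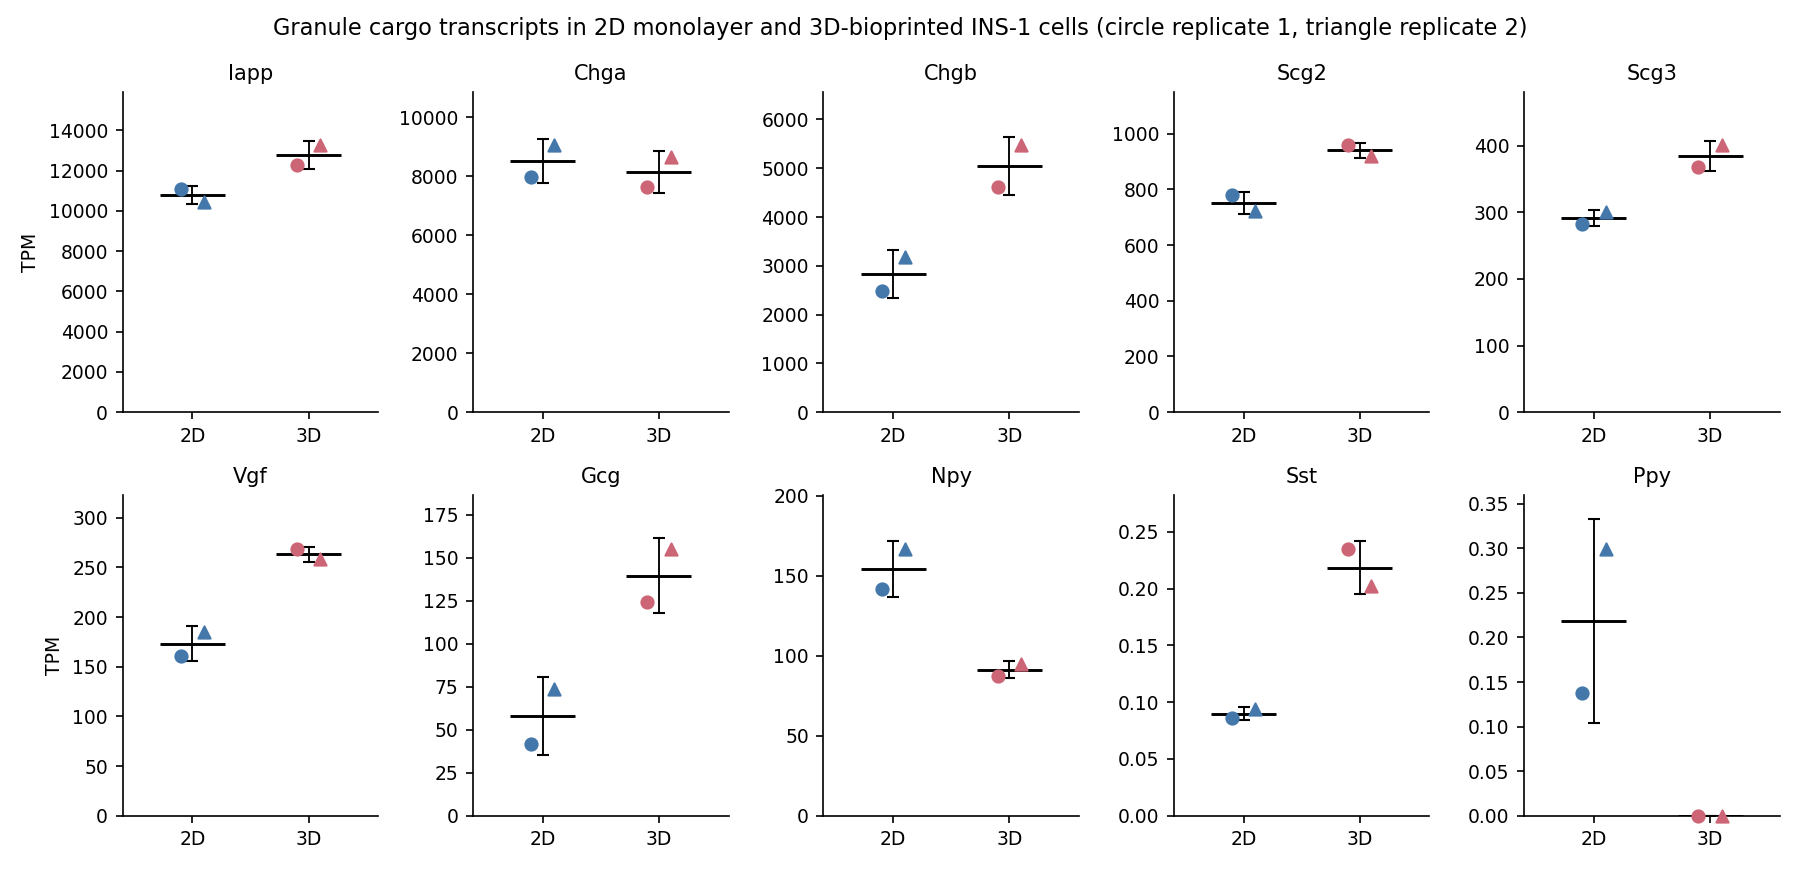
TPM as deposited of the 10 cargo genes in each culture, on axes that start at 0, with blue for 2D and red for 3D culture, circles for replicate 1, triangles for replicate 2, and bars for the mean and SD of 2 cultures. Chga overlaps between the groups, Npy is lower in both 3D cultures, and Ppy is listed at 0 in both 3D cultures, while the axes of Sst and Ppy end below 1 TPM.

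Iapp was the most abundant of the 10 cargo genes. It was at 11094 and 10467 TPM in the 2D cultures and at 12300 and 13260 TPM in the 3D cultures. Both 3D cultures lay above both 2D cultures, by a gap wider than the distance between the replicates of either group. The log2 fold change was 0.20 (standard error 0.094, 95% interval -0.033 to 0.44) with an adjusted p of 0.139 in limma, so that the difference did not pass the test. It passed in 1 of 9 other settings, without scaling between samples (adjusted p = 0.0352), and the adjusted p ranged up to 0.549 in the rest. Iapp ranked 7th of all genes in 2D and 5th in 3D culture.

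The ratio of Iapp to insulin was taken within each culture, where scaling between samples has no part. Iapp was at 8.16% and 7.01% of the summed TPM of the insulin transcripts (Ins1 and Ins2 of the rat and the added human INS) in 2D culture, and at 8.492% and 8.504% in 3D culture. The 3D cultures were nearly the same and both higher, and the 2D cultures were farther from each other than the nearer of them was from the 3D cultures. The difference of the means was 0.910 percentage points, 0.336 without 2D replicate 2 and 1.48 without 2D replicate 1. Reads from the 3 insulin transcripts may be alike enough to be divided among them by the quantification, which was not tested. Against Ins1 alone the ratio overlapped between the groups, with 9.73% and 8.28% in 2D and 9.65% and 9.62% in 3D culture. With 2 cultures against 2, no exact permutation test of a single value can give a two-sided p below 0.33, and none was run on these ratios.

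Among the insulin transcripts themselves, 1 of 3 passed the test, 33.3% against 38% of all genes tested. Ins2 was at 13237 and 13340 TPM in 2D and at 8957 and 9326 TPM in 3D culture. Both 3D cultures were lower (log2 fold change -0.58 with a standard error of 0.093, limma adjusted p = 0.00946). The adjusted p of Ins2 was 0.107 without 3D replicate 1 and 0.0737 without 3D replicate 2, and over 9 other settings it ran from 0.00450 to 0.0714, the last without an expression filter. Ins1 had a log2 fold change of 0.10 (limma, adjusted p = 0.681), which turned to -0.015 without 2D replicate 1, and INS had -0.12 (adjusted p = 0.374), or -0.029 without 2D replicate 2 and -0.22 without 2D replicate 1.

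Within a culture, Chgb stood in a different proportion to Chga in the 2 groups, a ratio that was chosen after the values were seen. Chgb was at 31.1% and 35.2% of Chga TPM in 2D culture and at 60.4% and 63.2% in 3D culture. Both 3D cultures were well above both 2D cultures, and with each culture left out the difference of the means stayed between 26.6 and 30.7 percentage points. Chga made up 68.3% and 67.3% of the TPM of the 5 granins in 2D culture and 55.2% and 55.1% in 3D culture. The 5 granins together took 1.17% and 1.34% of all TPM in 2D and 1.39% and 1.57% in 3D culture, also a sum added after the values were seen. The groups did not overlap in this sum, but the highest 2D and the lowest 3D culture were closer to each other than the replicates of either group. Its difference of 0.222 percentage points was 0.134 without 2D replicate 1 and 0.130 without 3D replicate 2. All 10 cargo genes together took 2.30% and 2.42% of TPM in 2D and 2.64% and 2.92% in 3D culture, higher in both 3D cultures by 0.423 points on average and by 0.282 points without 3D replicate 2.

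**Figure D3:**
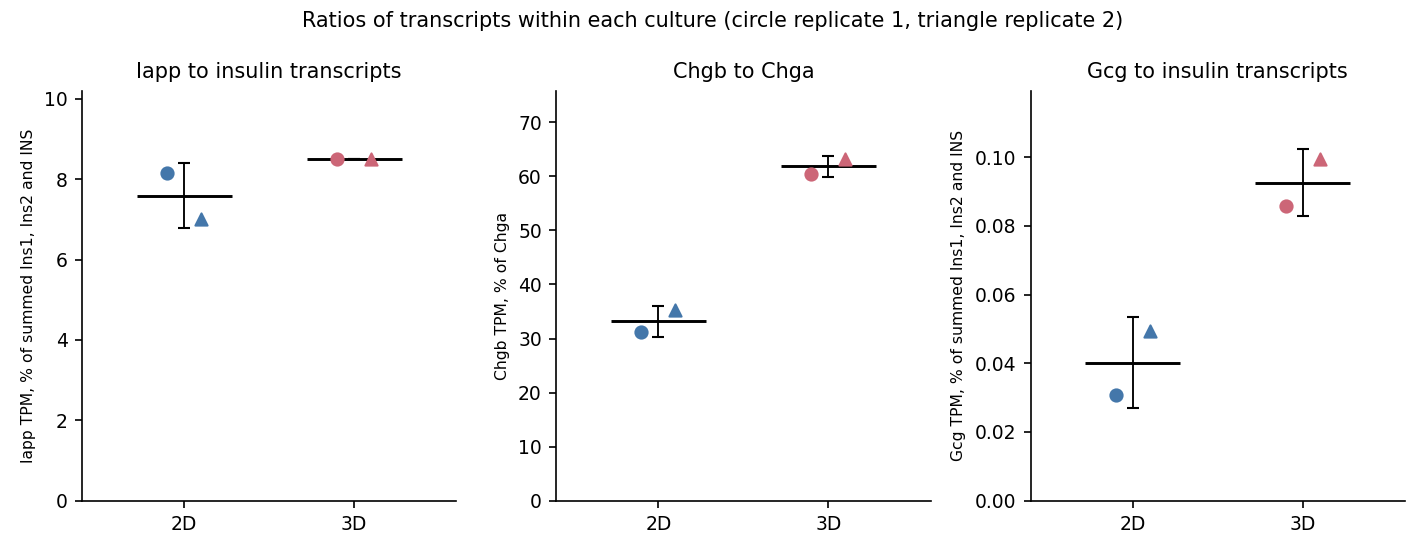
Ratios of transcripts within each culture, in percent, for Iapp to the summed insulin transcripts, Chgb to Chga, and Gcg to the summed insulin transcripts, with circles for replicate 1, triangles for replicate 2, and the mean and SD of 2 cultures. The Chgb ratio runs from 31.1% to 35.2% in 2D and from 60.4% to 63.2% in 3D culture, while the Iapp ratio of 2D replicate 1, 8.16%, lies close to the 3D cultures.

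Gcg encodes proglucagon, the precursor of glucagon and of the incretin GLP-1. It was at 41.9 and 73.9 TPM in the 2D cultures and at 124.1 and 155.2 TPM in the 3D cultures. Both 3D cultures were above both 2D cultures, and the 2D cultures differed from each other 1.76-fold. The mean rose from 57.9 ± 22.6 TPM to 140 ± 22.0 TPM (SD, n = 2), with a log2 fold change of 1.26, standard error 0.28 (limma, adjusted p = 0.0217), and 103 of all genes tested had a higher one. Gcg was at 0.0308% and 0.0495% of insulin TPM in 2D and at 0.0857% and 0.0995% in 3D culture, a ratio chosen after the values were seen, with no overlap. The log2 fold change was 0.82 without 2D replicate 1 and 1.70 without 2D replicate 2. The adjusted p was 0.0960 without 3D replicate 1 and 0.117 without 3D replicate 2, and over 9 other settings it ran from 0.000753 to 0.0652, the last without an expression filter. Among the 6 alpha-cell markers, a list that includes Gcg, 3 (Irx1, Irx2 and Ttr) were listed at 0 in every culture.

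Npy encodes neuropeptide Y, which restrains insulin release in islets. It was at 141.7 and 166.9 TPM in the 2D cultures and at 87.6 and 95.1 TPM in the 3D cultures. Both 3D cultures lay below both 2D cultures, so Npy moved against the 5 cargo genes that rose. The mean fell from 154 ± 17.8 TPM to 91.4 ± 5.29 TPM (SD, n = 2), with a log2 fold change of -0.79, standard error 0.11 (limma, adjusted p = 0.00695). Of all genes tested, 125 had a lower log2 fold change. Npy passed in all 9 other settings, with adjusted p from 0.000704 to 0.0220, and was above the threshold without 3D replicate 1 (0.0728).

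Sst, the somatostatin gene, was at 0.0860 and 0.0938 TPM in 2D culture and at 0.235 and 0.202 TPM in 3D culture. These levels were higher in both 3D cultures but below 1 TPM in every culture. Hhex, a transcription factor of delta cells, was listed at 0 throughout. Ppy, the pancreatic polypeptide gene, was at 0.1372 and 0.2995 TPM in 2D culture and was listed at 0 in both 3D cultures. Pyy, which encodes the related peptide YY, was at 0.233 and 0.508 TPM in 2D culture and likewise listed at 0 in both 3D cultures. In a fit without an expression filter, the adjusted p in limma was 0.0602 for Sst and 0.0710 for Ppy.

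Levels of the 8 tested genes ran from 41.9 TPM (Gcg in 2D replicate 1) to 13260 TPM (Iapp in 3D replicate 2). From high to low, the order of the mean TPM in 2D culture was Iapp, Chga, Chgb, Scg2, Scg3, Vgf, Npy and Gcg. Vgf was above Npy within each 2D culture, at 160.9 against 141.7 TPM in replicate 1 and 185.4 against 166.9 TPM in replicate 2. The ranges of these 2 genes over the 2D cultures overlapped. In 3D culture the order was the same down to Vgf, and Gcg stood above Npy. Gcg was below Npy in both 2D cultures and above it in both 3D cultures, the one exchange of places among the 8.

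**Figure D4:**
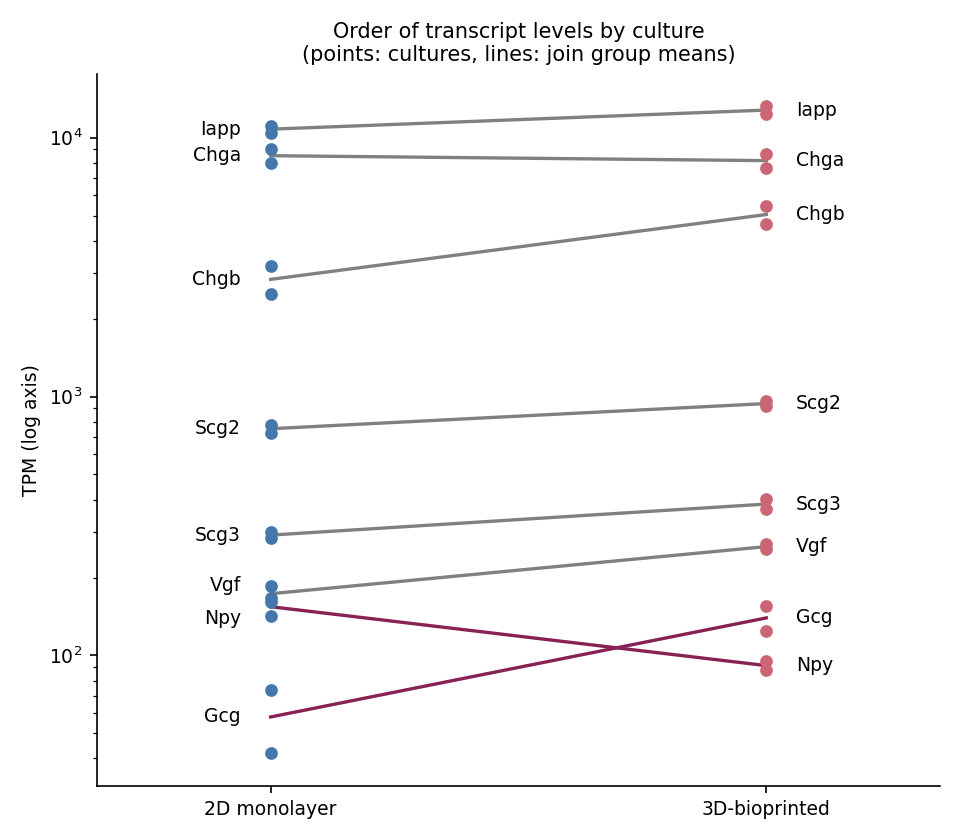
TPM of the 8 tested cargo genes on a log axis, with a point for each culture and lines that join the means of 2D (left) and 3D (right). Lines of Gcg and Npy cross, with Npy at 154 and Gcg at 57.9 TPM in 2D and Npy at 91.4 and Gcg at 140 TPM in 3D culture, while the other 6 genes keep their order.

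The cargo is cut and modified by processing enzymes inside the granule. Of 10 genes listed for prohormone processing, 9 were tested and 5 rose (limma), 55.6% against 38% of all genes tested. The median log2 fold change was 0.25 over the 9. The other 4 did not pass, and 1 of them was lower in 3D culture at an unadjusted p below 0.05 in limma. Pcsk2, the prohormone convertase that completes proglucagon and proinsulin cleavage in islet cells, was at 353.3 and 343.5 TPM in 2D and at 542.1 and 530.5 TPM in 3D culture. It was higher in both 3D cultures (log2 fold change 0.58 with a standard error of 0.056, limma adjusted p = 0.00410). Prss53, a serine protease gene, was at 5.73 and 6.51 TPM in 2D and at 12.5 and 11.8 TPM in 3D culture, with a log2 fold change of 0.85 (limma, adjusted p = 0.00537). Cpd, the gene of carboxypeptidase D, was at 59.8 and 40.4 TPM in 2D and at 74.6 and 77.5 TPM in 3D culture. Its 2D cultures lay far apart, and its log2 fold change was 0.58, or 0.33 without 2D replicate 2 and 0.81 without 2D replicate 1 (adjusted p = 0.0349 in limma, 0.00803 to 0.0964 over 9 other settings). Of the 9, 0 passed in limma without 3D replicate 1, though 4 had an unadjusted p below 0.05. The adjusted p was then 0.0586 for Pcsk2, 0.0649 for Prss53 and 0.149 for Cpd, and without 3D replicate 2, 3 genes passed and Cpd was at 0.147.

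Receptors of the cargo peptides and of related hormones were also followed. Of 21 such genes in the data, 8 were tested, 5 rose and 1 fell (75% called, against 38% of all genes tested), with a median of 0.31. Gcgr, the glucagon receptor gene, was at 52.8 and 56.2 TPM in 2D and at 121.6 and 115.6 TPM in 3D culture, which gave a log2 fold change of 1.07, standard error 0.076 (limma, adjusted p = 0.00348). Gipr, which encodes the receptor of the incretin GIP, was at 80.5 and 91.2 TPM in 2D and at 208.0 and 210.9 TPM in 3D culture, which gave a log2 fold change of 1.24, standard error 0.091 (limma, adjusted p = 0.00348). Both receptors were higher in both 3D cultures, with close replicates. Of the somatostatin receptor genes, Sstr1 rose from a mean of 3.30 to 5.31 TPM (log2 fold change 0.52, limma adjusted p = 0.0136) and Sstr3 fell from 38.1 to 31.7 TPM (log2 fold change -0.30, adjusted p = 0.0126). Of the neuropeptide Y receptor genes, Npy2r and Npy5r were listed at 0 in every culture, Npy1r was between 0.189 and 0.364 TPM, and Npy4r was above 0 only in 2D replicate 2 (0.0677 TPM). Without 3D replicate 1, 2 receptor genes passed, Gcgr (0.0441) and Gipr (0.0457), and 2 passed without 3D replicate 2, with Sstr1 at 0.0920 and 0.0861 and Sstr3 at 0.106 and 0.0945 in these fits.

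Of 19 endocrine transcription factors in the data, 12 were tested, 3 rose and 1 fell, with a median of 0.023. The share that passed, 33.3%, was below the 38% of all genes tested. Crem, which encodes a factor of the family that binds the cAMP response element, was at 46.4 and 41.9 TPM in 2D and at 82.8 and 80.0 TPM in 3D culture (log2 fold change 0.83 with a standard error of 0.060, limma adjusted p = 0.00348). Creb1 and Atf1, of the same family, did not pass, with log2 fold changes of -0.048 and 0.074. Pax6, a regulator of islet hormone genes that include Gcg, was at 170.9 and 172.7 TPM in 2D and at 278.0 and 256.6 TPM in 3D culture (log2 fold change 0.59, limma adjusted p = 0.00544). Isl1 was at 49.2 and 53.5 TPM in 2D and at 64.2 and 69.2 TPM in 3D culture (log2 fold change 0.33, limma adjusted p = 0.0284, 0.00962 to 0.0718 over 9 other settings). The groups did not overlap for Crem, Pax6 and Isl1, nor for 74.2% of all genes tested. Without 3D replicate 1 only Crem of the tested factors passed (0.0483), with 0.0624 for Pax6 and 0.119 for Isl1. Without 3D replicate 2, 2 genes passed, with 0.153 for Isl1, which was at 0.0548 without 2D replicate 1.

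**Figure D5:**
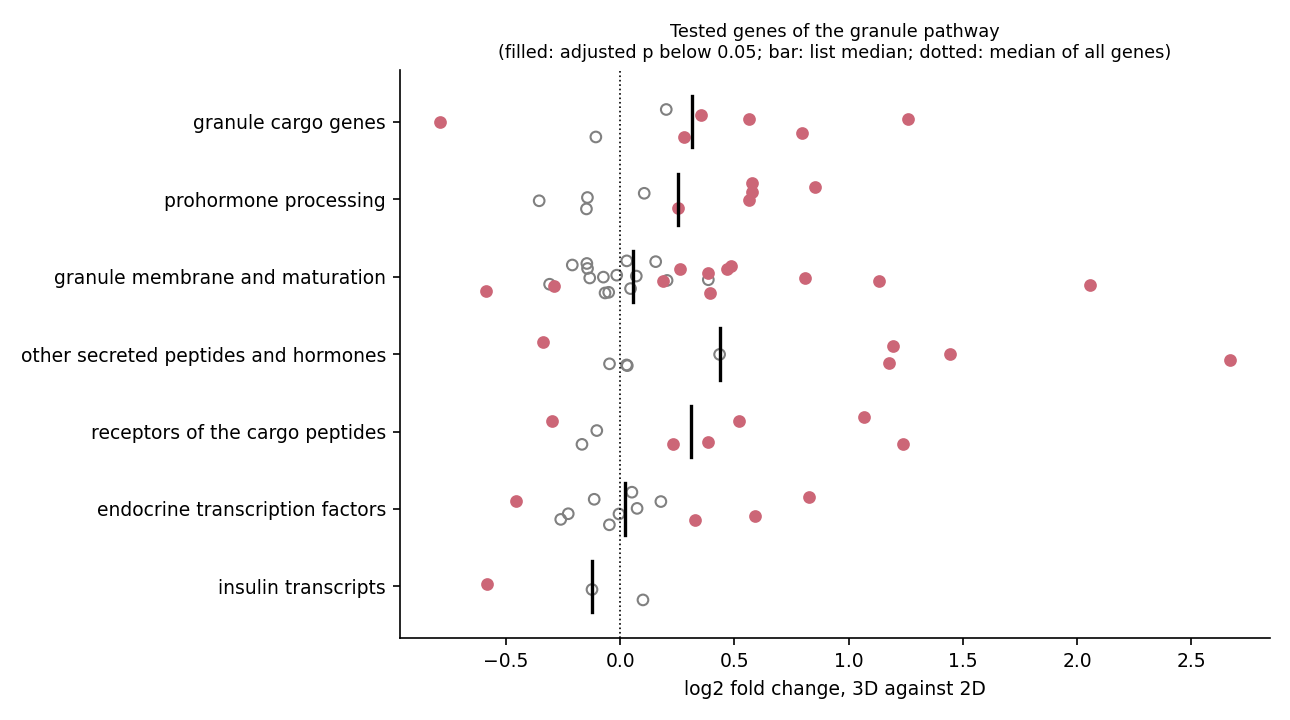
Log2 fold changes of 3D against 2D culture for the tested genes of the cargo and of 6 related lists, 1 point per gene, filled where the adjusted p was below 0.05, with a black bar at the median of each list and a dotted line at that of all genes tested. The medians lie between -0.12 (insulin transcripts) and 0.44 (other secreted peptides and hormones).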

How the data were processed

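Stranded polyA libraries of the 4 cultures had been read from single ends. Per the labels, the submitters' processing notes name FastQC 0.11.8, Salmon 1.2 and the rn4 build, and by the study's methods the human insulin gene was added to the reference. The authors deposited TPM per transcript. The decimal commas of the deposited TPM were read as points, and each sample then summed to 1000000 with no negative value. TPM carry no counts, so the count test of the study was not repeated. The cargo genes and the related lists were chosen with earlier results of these data known.

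TPM were summed over the transcripts of each symbol, each of the 10 cargo genes being listed by 1 transcript. Genes with a mean of at least 1 TPM were scaled by TMM without weights (trimming 30% of the M and 5% of the A values from either end) and tested as log2(TPM + 1) with limma 3.58.1 in R 4.3.3 (empirical Bayes with an intensity trend, two-sided), without covariates and with Benjamini-Hochberg adjustment over all 11960 genes. The scripts were tested on simulated data. Tables and plots were made in Python 3.11.15 with pandas 2.3.3. For no transcript above 0 did samples hold an identical value.

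All 10 cargo genes are named with their values. From each related list the text names the genes past the threshold with the largest absolute log2 fold change, up to 5 per list and 3 per direction, and all insulin transcripts; other genes of these lists, such as Creb1 and Atf1, were singled out after their values were seen. Some genes that count in these lists, 1 of them past the threshold, are not reported here. Insm1 and Npy6r are not used here. Alternatives were the scaling, insulin in the total, the filter, the pseudocount, the trend, a block by replicate number, the most abundant transcript per gene, and each culture left out in turn.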

Additional observations from a re-analysis of the deposited data

How the results depend on the processing

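Values recomputed under other settings were tallied, except calls over all genes and cargo genes, the cargo share and the Iapp ratio. Of those tallied, 307 kept their direction and their side of the threshold (or, for counts, stayed near). Another 19 lost a call or dropped in count and 1 gained a call. With each culture left out, 106 did so, 52 lost a call or dropped in count and 2 turned sign. The number of genes called ranged from 136 to 4515 in those fits, in which the lone culture is assumed to vary like the other group, and the number of cargo genes called from 0 (of 8 tested, 5 at an unadjusted p below 0.05 in limma) to 6. The log2 fold change of Chga ran from -0.24 to 0.018 and that of Ins1 from -0.015 to 0.21. With no expression filter, 2 cargo genes (Vgf and Npy) were called, 3 processing enzymes in place of 5, 2 transcription factors in place of 4 and 0 insulin transcripts (1 at an unadjusted p below 0.05) in place of 1. Without the intensity trend 3 processing enzymes were called, and with a mean of at least 5 TPM, where fewer genes are tested, 2 other peptides in place of 5. The cause of these losses was not tested. Same-numbered cultures deviated with a correlation of -0.006 across genes, so the replicate numbers showed no pairing by this measure. The labels do not say whether a number marks a shared batch, and this value cannot decide it. A fit with a replicate block called 4814 genes and 6 cargo genes. The study states a read count per sample, but TPM carry no counts per gene. Counting error was therefore not estimated, and 2 cultures a group limit all calls.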

Other observations

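Of 27 genes of the granule membrane and of granule maturation, 26 were tested, 9 rose and 2 fell, with a median log2 fold change of 0.058. The share that passed, 42.3%, was close to the 38% of all genes tested. Slc18a1 encodes a vesicular monoamine transporter. It was at 0.296 and 0.420 TPM in 2D and at 5.73 and 3.90 TPM in 3D culture (log2 fold change 2.06, limma adjusted p = 0.00409), and it reached the minimum for testing only through its level in 3D culture. The added 1 TPM lowers this fold change, which was 3.37 with 0.1 TPM added. Tmem163, a vesicular zinc transport gene, was at 9.34 and 11.1 TPM in 2D and at 23.9 and 24.5 TPM in 3D culture, with a log2 fold change of 1.13. Vti1a, which encodes a SNARE protein of the Golgi and maturing granules, was at 15.1 and 14.4 TPM in 2D and at 27.8 and 26.8 TPM in 3D culture, with a log2 fold change of 0.81. The falls were those of Eipr1 (log2 fold change -0.59, limma adjusted p = 0.00953) and Hid1 (-0.29, adjusted p = 0.0158), both needed for dense-core granule formation. Eipr1 was at 22.0 and 23.3 TPM in 2D and at 14.0 and 16.4 TPM in 3D culture, and Hid1 at 151.9 and 142.9 TPM and at 119.4 and 129.1 TPM. The groups did not overlap for any of these 5 genes, nor for 74.2% of all genes tested. Without 3D replicate 1 only Slc18a1 of the list passed (adjusted p = 0.0365), with 0.0565 for Tmem163, 0.0525 for Vti1a, 0.0818 for Eipr1 and 0.132 for Hid1, and without 3D replicate 2, 5 genes passed and Hid1 was at 0.0693.

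Of 32 other secreted peptides and hormones, 9 were tested and 9 were listed at 0 in every culture. Of those tested 4 rose and 1 fell (55.6% called, against 38% of all genes tested), with a median log2 fold change of 0.44. Prok2, which encodes prokineticin 2, was at 6.20 and 6.94 TPM in 2D and at 44.7 and 52.7 TPM in 3D culture, higher in both 3D cultures by a log2 fold change of 2.67 (limma, adjusted p = 0.00141). Tac1, the precursor gene of substance P, was at 1.23 and 1.85 TPM in 2D and at 6.43 and 5.64 TPM in 3D culture (log2 fold change 1.44). Cartpt, the gene of the CART peptide, was at 1.01 and 1.62 TPM in 2D and at 4.42 and 4.30 TPM in 3D culture (log2 fold change 1.19). These are low levels, at which the added 1 TPM lowers the fold change. Pomc was at 3.68 and 3.78 TPM in 2D and at 2.76 and 2.88 TPM in 3D culture (log2 fold change -0.34, limma adjusted p = 0.0424), and it passed in 4 of 8 other settings (0.0237 to 0.0663) and in none of the fits without 1 culture (0.0575 to 0.175). Without 3D replicate 1 only Prok2 passed (0.0214), with 0.0592 for Tac1 and 0.0678 for Cartpt, and without 3D replicate 2, 3 genes passed.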
